A study of Mus musculus with 4 samples.

Results

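The Sprr2 gene cluster lies near the middle of the Epidermal Differentiation Complex on mouse chromosome 3, and its chromatin contacts were measured with the chromosome conformation capture carbon copy (5C) method. A contact was taken as a member when at least 1 of its 2 HindIII fragments had its midpoint at 92.000 to 92.238 Mb (mm9). Of the 712 fragments listed in the locus, 17 met this rule, and of 111588 contacts listed in any library, 5510 belonged to the cluster. Of these, 1596 were listed in all 4 libraries, out of 23395 such contacts in the whole locus. Per the labels both cell types came from newborn C57BL/6 mice, and neither a genetic change nor a drug is named. The 2 keratinocyte libraries were made from primary epidermal cells kept for 15 h at 32 °C on collagen in low calcium medium, and the 2 thymocyte libraries from primary thymocytes. All were fixed in 1% formaldehyde for 10 min. The 2 libraries of each cell type are described as independent biological replicates, without saying whether they came from separate animals, so the p-values measure only the spread between these libraries.

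Sprr2 genes encode small proline-rich proteins, which transglutaminases cross-link into the cornified envelope, the protein shell that replaces the plasma membrane of terminally differentiating keratinocytes. They share this role with loricrin (Lor), involucrin (Ivl), the Sprr1 and Sprr3 proteins and the late cornified envelope (Lce) proteins, whose genes lie beside them. Thymocytes are developing T cells and make no cornified envelope. A topologically associating domain (TAD) is a stretch of chromatin whose fragments contact each other more than they contact their neighbours, and in this locus the study numbers them TAD1 to TAD7. In keratinocytes TAD3 holds the Sprr2 cluster with Prr9, Lelp1, Sprr1, Sprr3, Ivl and Lce1, and the gene-poor TAD2 lies before it, whereas the border between TAD2 and TAD3 in thymocytes falls inside the cluster.

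In 5C a forward probe on one fragment and a reverse probe on another are ligated when they meet across a restored HindIII site, so that each contact pairs 1 forward with 1 reverse probe. The probes below, read 5′ to 3′ without their primer tails, carry the 8 contacts called in both cell types. Capitals mark the part of the HindIII site left on the probe, and joining the end of a forward probe to the start of a reverse probe restores the whole site. FOR_801 lies at chr3:92188333-92189358 (mm9), ending 249 bp before the start of Sprr2h, and FOR_796 at chr3:92167365-92174697, a fragment that holds all of Sprr2f. REV_856 at chr3:92378027-92379194 begins 390 bp upstream of the start of Ivl, REV_896 at chr3:92473924-92475985 overlaps Lce1a2, and REV_1019 at chr3:92928281-92930961 lies within 10 kb of E9, an enhancer of the study's numbered list, 17748 bp before Crnn. REV_981 at chr3:92818140-92819630 overlaps Crct1, a cysteine-rich gene of the complex. FOR_805 at chr3:92214219-92217726 lies 1026 bp past Sprr2i, REV_829 at chr3:92313848-92316488 and REV_865 at chr3:92405170-92408653 lie upstream of Sprr4 and Smcp, and REV_1542 at chr3:94637243-94638404 overlaps Gm15263 in TAD6.
FOR_801: aaccaattataccacctttacccccacAAG
FOR_796: cctaggtctctccataccctctgtattAAG
FOR_805: tctgtgctaataagctactgcaagtagAAG
REV_829: CTTccaggaaaagcctaagtttttctccct
REV_856: CTTgaatacatgtcagagcactggaaagga
REV_865: CTTctctcttatggtaccattagcttgctg
REV_896: CTTttcacattacaataccaccctgccttc
REV_1019: CTTgttgtttctgaaactctgtacgtttgc
REV_981: CTTctctggccatacactgttcagtcttct
REV_1542: CTTccccagtctactagtggagtaagaagg
The Sprr2h promoter starts where FOR_801 ends. Its sequence, from 250 bases before to 50 after the RefSeq start on the plus strand, is chr3:92385435-92385734 in GRCm38.p6 and was found once, without a mismatch, at chr3:92189357-92189656 in mm9. It is shown with that of Sprr2f, the gene inside FOR_796, and capitals mark the letters TGANTCA, the motif known to bind AP-1 factors, searched on both strands.
Sprr2h promoter: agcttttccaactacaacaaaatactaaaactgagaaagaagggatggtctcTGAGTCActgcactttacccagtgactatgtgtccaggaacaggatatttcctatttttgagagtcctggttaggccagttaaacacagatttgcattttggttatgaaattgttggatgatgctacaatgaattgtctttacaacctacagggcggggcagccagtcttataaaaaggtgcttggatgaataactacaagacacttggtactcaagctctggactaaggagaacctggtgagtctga
Sprr2f promoter: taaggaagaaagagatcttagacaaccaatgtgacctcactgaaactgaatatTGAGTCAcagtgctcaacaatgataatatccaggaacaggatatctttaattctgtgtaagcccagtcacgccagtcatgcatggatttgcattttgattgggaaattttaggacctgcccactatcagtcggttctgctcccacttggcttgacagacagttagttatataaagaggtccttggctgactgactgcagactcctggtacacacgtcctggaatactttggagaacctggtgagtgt
These letters occurred in 7 of the 10 Sprr2 promoters of the RefSeq table and in 7.81% of all 32851 promoters in it. They were absent from this window in Sprr2a1, Sprr2a2 and Sprr2a3.

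The fragments do not cover the cluster evenly. The window holds 87 HindIII fragments in mm9, 21 probes were designed in it, and 17 fragments were listed, 9 with forward and 8 with reverse probes. REV_724 and FOR_725 lie together at the start of the window, 17894 bp or more before Sprr2a1. No fragment was listed over the following 148 kb, from 92001864 to 92150225, so Sprr2a1, Sprr2a2, Sprr2a3, Sprr2b and Sprr2d were not measured. The other 15 fragments lie among Sprr2e, Sprr2f, Sprr2g, Sprr2h, Sprr2i, Sprr2j-ps and Sprr2k. The average thymocyte border, at 92.0825 Mb, falls inside the uncovered stretch. All 17 probes matched mm9 without a mismatch.

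The share of possible cluster contacts that were listed differed between libraries, at 83.5% and 65.4% in keratinocytes and 44.2% and 55.9% in thymocytes, against 81.6%, 57.0%, 38.1% and 46.6% over the whole locus. REV_795, FOR_798 and FOR_808 were listed in 25 to 50 contacts in each thymocyte library, and FOR_808 in none of keratinocyte library 2. The libraries also differed in ways their labels do not explain. Over the 1596 shared contacts the Z scores of the 2 keratinocyte libraries correlated with r = 0.217 and those of the 2 thymocyte libraries with r = 0.184, while keratinocyte library 2 and thymocyte library 1 had r = 0.455. This correlation is across contacts, which share fragments and are not independent replicates. Results are therefore given by library below, and keratinocyte library 1 stood apart most often. Values are given in 2 forms, both of which allow for the distance between fragments: the Z score deposited for each contact, and the log2 ratio of its corrected frequency to the frequency expected at its distance. With 2 libraries against 2, the smallest two-sided exact permutation p is 0.333, so no single library mean could pass a threshold of 0.05.

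Toward TAD2, contacts of the Sprr2 cluster were, relative to the frequency expected at their distance, lower in keratinocytes than in thymocytes. Over 207 contacts the mean log2 observed over expected reached -0.60 in the first and -0.18 in the second keratinocyte library, against 0.08 and 0.10 in thymocytes. Both keratinocyte libraries thus lay below the expected level and both thymocyte libraries above it. The difference of -0.48 was larger than the spread between libraries of either cell type (SD 0.30 in keratinocytes and 0.02 in thymocytes, n = 2 each, exact permutation p = 0.333, adjusted p = 0.667 over the 10 parts of the locus). The mean Z score showed the same order, at -0.238 and 0.0568 in keratinocytes and 0.419 and 0.580 in thymocytes. Keratinocyte library 1 made up much of the difference, which was -0.27 without it. At the level of single contacts, 75 of the 207 had both keratinocyte Z scores below both thymocyte Z scores, or 36.2%, where 19.1 percent of all contacts in the locus did. Only 17, or 8.21%, had both keratinocyte Z scores above both of thymocytes, where 21.1 percent of all contacts did. The median corrected frequency, which does not allow for distance, ran the other way, at 164 and 111 in keratinocytes and 89.4 and 84.2 in thymocytes, and the median expected frequency moved with it, at 168, 98.0, 81.8 and 80.6.

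The order of the cell types was the same at short and long distances and in most fragments. In the 97 contacts under 500 kb the mean log2 ratio was -0.69 and -0.21 in keratinocytes against 0.00 and 0.04 in thymocytes, and in the 59 contacts over 1000 kb it was -0.74 and -0.32 against 0.03 and 0.18. In the 51 contacts between these distances the libraries did not overlap either, at -0.25 and 0.05 against 0.27 and 0.12, although their Z scores did. Of the 14 cluster fragments with at least 4 such contacts in all libraries, all 14 had a lower mean in keratinocytes, with differences from -1.50 to -0.10, and in 9 of them the libraries of the cell types did not overlap. At FOR_796, which holds Sprr2f, the means were -0.25 and -0.09 in keratinocytes and 0.29 and 0.62 in thymocytes. At FOR_810, which holds the start of Sprr2k, they were -0.68 and -0.19 against 0.07 and 0.21. FOR_801 before Sprr2h was less even, at 0.50 and -1.99 in keratinocytes and 0.28 and -0.05 in thymocytes. The lowest difference, -1.50, was at REV_807 on only 4 contacts, with -1.20 and -1.62 in keratinocytes against -1.02 and 1.20 in thymocytes. It rested mostly on thymocyte library 2. The highest difference, -0.10, was at FOR_793, with -0.42 and -0.03 against 0.20 and -0.44, which overlap. These fragments share their libraries and many partners, so they are not replicates.

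**Figure D1:**
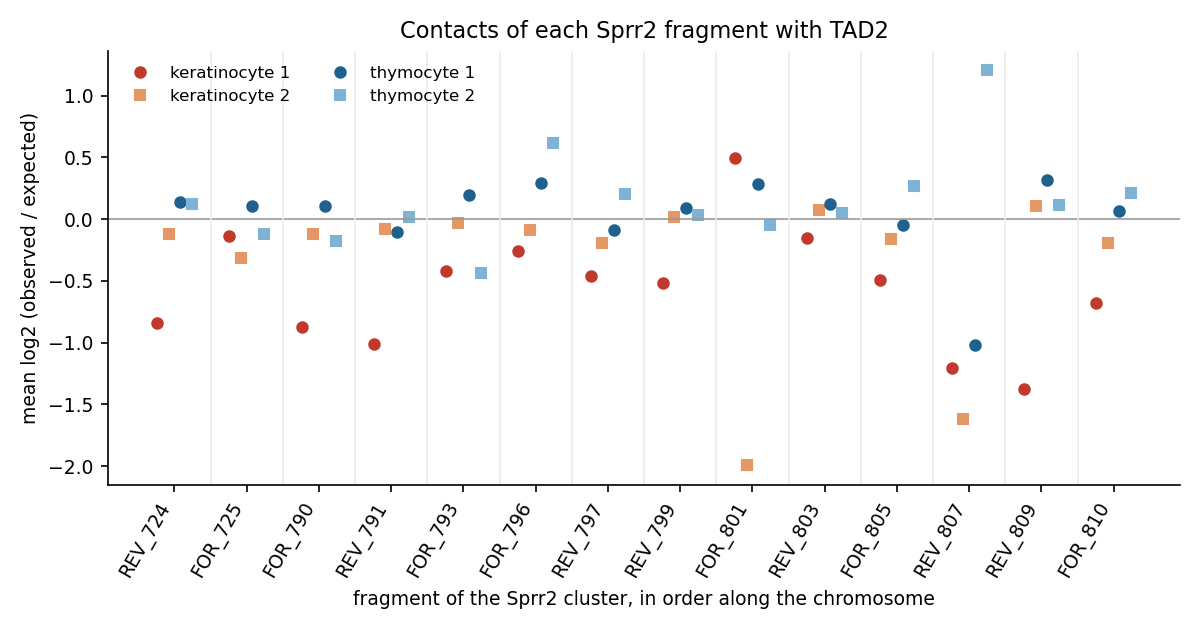
Mean log2 ratio of observed to expected frequency (vertical axis) of the contacts of each Sprr2 fragment with TAD2, for the 14 fragments with at least 4 such contacts listed in all 4 libraries, in chromosome order. Each point is 1 library; in 9 fragments both keratinocyte points lie below both thymocyte points.

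Other gene groups of TAD3 were compared with the cluster in the same libraries. Toward TAD2, 3 of the 4 groups had the same order of cell types as the cluster. Prr9 and Lelp1 (156 contacts) had -0.96 and -0.19 in keratinocytes and -0.02 and 0.10 in thymocytes, a difference of -0.61 that was larger than that of the cluster. The Sprr1 and Sprr3 genes (110 contacts) had -0.68 and -0.15 against 0.13 and 0.02, and the fragments around Ivl (180 contacts) -0.11 and 0.01 against 0.07 and 0.19. The cluster minus Prr9 and Lelp1 and the cluster minus Sprr1 and Sprr3 overlapped between the cell types (exact permutation p = 0.667 each). The Lce1 genes, at the other end of TAD3, had the opposite order: over 509 contacts with TAD2 the mean log2 ratio was 0.46 and 0.36 in keratinocytes and 0.12 and 0.16 in thymocytes. The cluster minus Lce1 was -1.06 and -0.54 in keratinocytes and -0.04 and -0.06 in thymocytes. This difference of differences was -0.75 and its libraries did not overlap (exact permutation p = 0.333).

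Toward the fragments around Ivl the order of the cell types was turned. Over 74 contacts the mean log2 observed over expected was 0.60 and 0.27 in keratinocytes and 0.09 and 0.25 in thymocytes. The libraries did not overlap, but keratinocyte library 2 exceeded thymocyte library 2 by little. The mean Z score was 1.71 and 0.951 in keratinocytes and 0.474 and 0.821 in thymocytes, the highest of any part of the locus in both keratinocyte libraries. The log2 difference of 0.27 exceeded the SDs of 0.24 and 0.12 (n = 2 each, exact permutation p = 0.333, adjusted p = 0.667) and was 0.10 without keratinocyte library 1. Of the 74 contacts, 21 had both keratinocyte Z scores above both of thymocytes (28.4%) and 9 had both below (12.2%), beside 21.1 percent and 19.1 percent of all contacts in the locus. Of the 13 cluster fragments with at least 4 contacts here, 11 had a higher mean in keratinocytes, and in 5 of the 13 the libraries did not overlap. REV_791, which ends 314 bp before Sprr2e, had means of 1.13 and 0.68 in keratinocytes and 0.53 and 0.37 in thymocytes. Prr9 and Lelp1 (59 contacts) were also higher toward Ivl in keratinocytes, at 0.32 and 0.45 against -0.11 and 0.22, a difference of 0.33, and the cluster minus this group overlapped (exact permutation p = 1). Sprr1 and Sprr3 (55 contacts) overlapped between the cell types toward Ivl, with a difference of -0.05. The contacts of Ivl with the Lce1 genes went the other way, at -0.22 and -0.23 in keratinocytes and -0.01 and 0.04 in thymocytes, and the cluster minus Lce1 was 0.82 and 0.50 against 0.10 and 0.21 (exact permutation p = 0.333).

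The remaining parts were TAD1, TAD4 to TAD7 and the other gene groups of TAD3. Toward Prr9 and Lelp1, the part between the keratinocyte border and the cluster, the mean Z score over 68 contacts was 0.429 and 0.369 in keratinocytes and -0.0238 and 0.0980 in thymocytes, but the mean log2 ratio was -0.43 and 0.03 against -0.07 and 0.02, with overlapping libraries and the other direction. Toward Sprr1 and Sprr3 the 2 measures also disagreed: the Z score was higher in keratinocytes by 0.291 and the log2 ratio lower by 0.05. Without keratinocyte library 1 the Z score difference was 0.0362, and without keratinocyte library 2 it was 0.545. Toward Lce1, over 171 contacts, the log2 ratios of 0.29, 0.10, 0.14 and 0.20 in keratinocytes 1 and 2 and thymocytes 1 and 2 overlapped between cell types. Toward TAD4, which holds the Lce3, Crct1, Flg and Hrnr genes, 446 contacts had log2 ratios between 0.08 and 0.15 in all libraries. Toward TAD5 only 24 contacts were shared, with log2 ratios of -0.01 and -0.24 in keratinocytes and 0.26 and 0.20 in thymocytes. This difference of -0.36 was larger than that toward Ivl and exceeded the SDs of 0.16 and 0.04 (n = 2 each, exact permutation p = 0.333, adjusted p = 0.667), and it lay between -0.47 and -0.25 when any 1 library was left out. The mean Z score toward TAD5 was 0.495 and -0.147 against 0.843 and 0.823, a difference of -0.659 that was -0.338 without keratinocyte library 2. Toward TAD1, which holds the S100a genes, the mean Z score over 222 contacts was 0.118 and 0.747 in keratinocytes and 1.01 and 1.16 in thymocytes, a difference of -0.654 that was -0.340 without keratinocyte library 1, yet the difference between the medians had the opposite sign, at 0.111. The log2 ratios toward TAD1 were -0.33 and 0.08 against 0.11 and 0.11, with a difference of -0.23 that was -0.03 without keratinocyte library 1. TAD6 and TAD7 overlapped between the cell types in both measures.

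**Figure D2:**
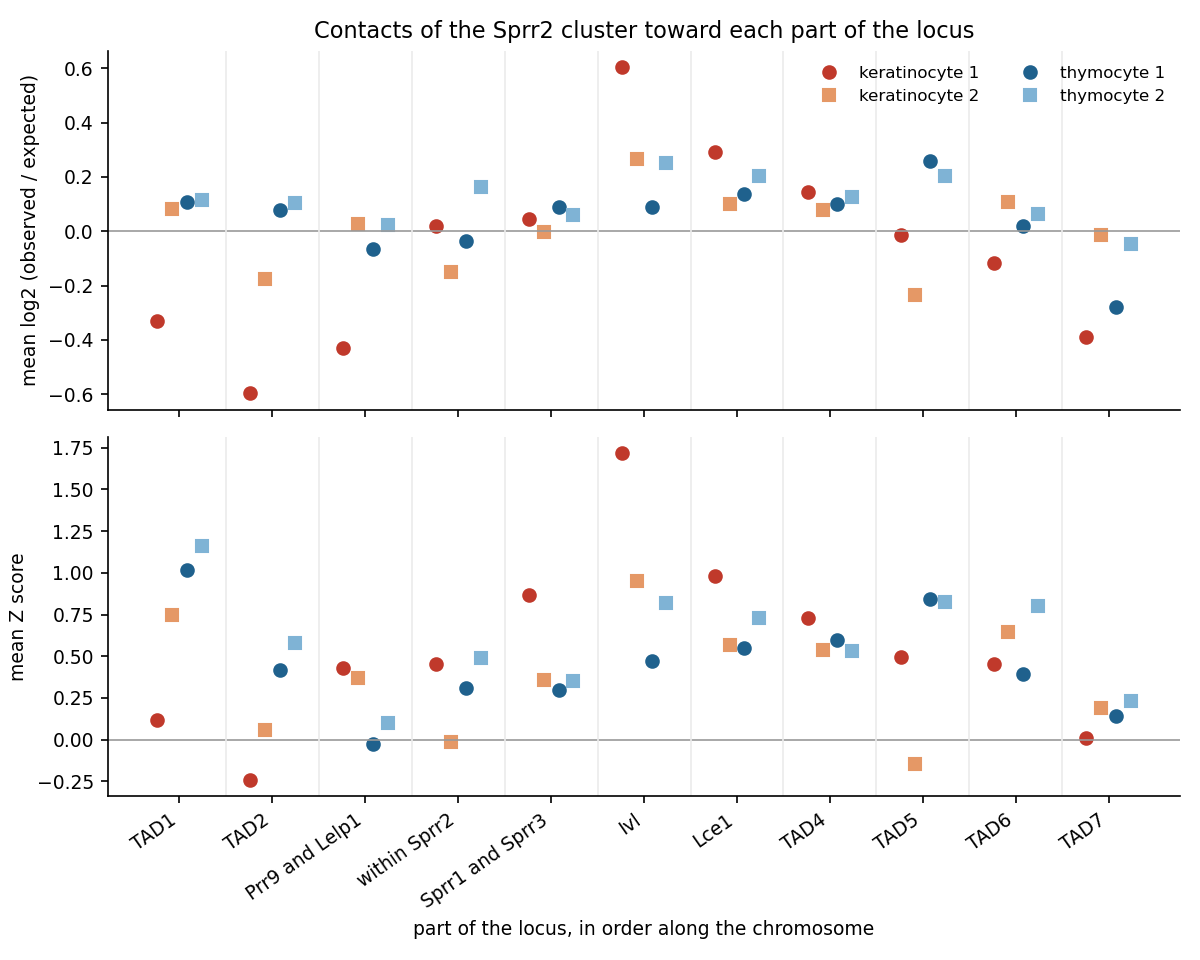
Mean log2 ratio of observed to expected frequency (upper panel) and mean Z score (lower panel) of the Sprr2 contacts listed in all 4 libraries, toward each part of the locus in chromosome order. Each point is 1 library; in both panels both keratinocyte points lie below both thymocyte points at TAD1, TAD2 and TAD5 and above them at Ivl.

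The 2 sides of the cluster were compared because the average thymocyte border separates them. The paper's approximate accuracy for border positions is wider than the distance from this border to the nearest fragment on either side. The placing of fragments before and after the border is therefore uncertain. TAD2 and the rest of TAD3 followed the keratinocyte borders in all libraries. The rest of TAD3 thus includes Prr9 and Lelp1, which the thymocyte border places in TAD2. For the 2 fragments before that border, the mean log2 ratio toward the rest of TAD3 minus that toward TAD2 was 0.37 and 0.29 in keratinocytes and -0.05 and 0.17 in thymocytes. For the 15 fragments after it, of which 14 had contacts listed in all libraries, it was 0.85 and 0.28 in keratinocytes and 0.01 and 0.03 in thymocytes. On both sides keratinocyte contacts leaned toward TAD3 relative to TAD2, by 0.27 and 0.54 more than in thymocytes, and the libraries did not overlap (exact permutation p = 0.333 each). Without keratinocyte library 1 the value after the border was 0.25, and without thymocyte library 1 the value before it was 0.17. The difference lay mostly on the TAD2 side. After the border the values toward TAD3 were 0.27 and 0.10 in keratinocytes and 0.08 and 0.14 in thymocytes, which overlap. Those toward TAD2 were -0.59 and -0.18 against 0.07 and 0.11. Before the border the values toward TAD3 were -0.29 and 0.12 in keratinocytes and 0.08 and 0.23 in thymocytes. These overlapped and were lower on average in keratinocytes, while those toward TAD2 were -0.66 and -0.17 against 0.13 and 0.06. In thymocytes the fragments before the border, which the border places in TAD2, had values toward TAD2 of 0.13 and 0.06, which overlapped those of the fragments after it. Over 194 contacts that crossed the thymocyte border within 500 kb of it, the mean log2 ratio was -0.26 and -0.04 in keratinocytes and -0.01 and 0.07 in thymocytes (exact permutation p = 0.333). Within 200 kb the difference was 0.01, against -0.18 within 500 kb. The latter was -0.07 without keratinocyte library 1 and -0.29 without keratinocyte library 2, and the libraries overlapped by Z score, with a difference of -0.0814 (exact permutation p = 1).

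**Figure D3:**
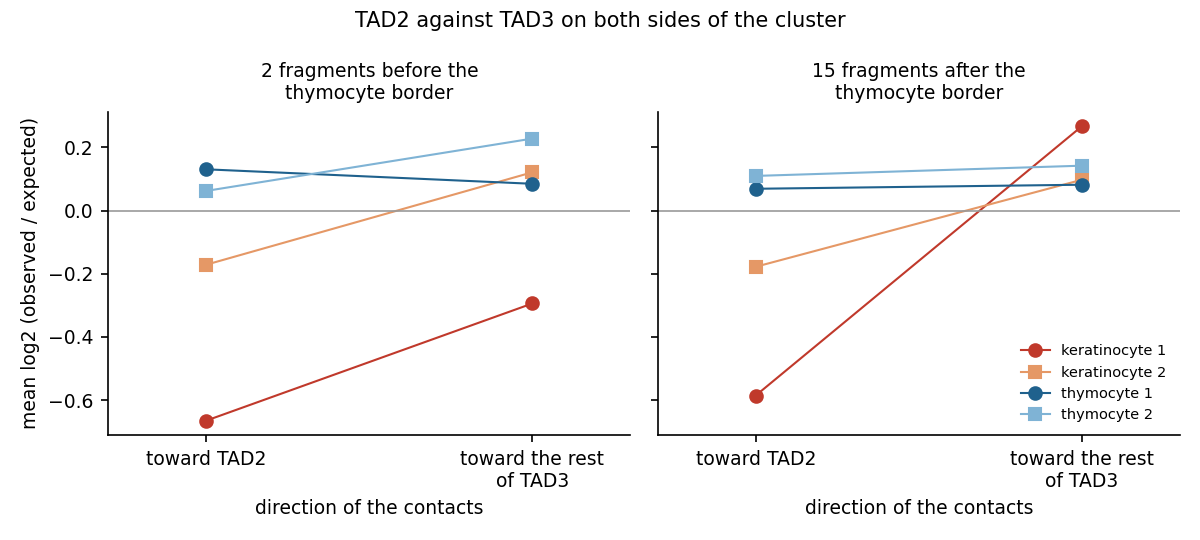
Mean log2 ratio of observed to expected frequency (vertical axis) of the Sprr2 contacts toward TAD2 and toward the rest of TAD3, for the 2 fragments before (left) and the 15 after (right) the thymocyte border between those domains. TAD2 and the rest of TAD3 follow the keratinocyte borders. Each line joins the 2 means of 1 library; both keratinocyte lines climb in both panels, by 0.28 to 0.85.

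Within the cluster the cell types were not told apart. Of 72 possible pairs of cluster fragments, 37 were listed in all 4 libraries. Their mean log2 corrected frequency was 10.42 and 9.56 in keratinocytes and 9.97 and 10.29 in thymocytes. Their mean Z score was 0.455 and -0.0154 against 0.312 and 0.491, and their mean log2 ratio to the expected frequency was 0.02 and -0.15 against -0.04 and 0.16. The libraries overlapped in all 3 measures (exact permutation p = 1, 0.667 and 0.667). No pair of cluster fragments passed a q-value of 0.05 in each library of either cell type, out of 43 listed in both keratinocyte and 45 in both thymocyte libraries, counts of 0 that allow shares of up to 6.98% and 6.67%. Over the whole locus the matching shares were 1.99% in keratinocytes and 4.03% in thymocytes. Each lies within what the 0 counts allow, so these counts do not set the cluster pairs apart from the locus. In single libraries 4 of 62 and 0 of 46 listed pairs passed in keratinocytes, and 2 of 46 and 2 of 51 in thymocytes. Locus shares for single libraries are not given, so the single-library counts are not read as a trait of the cluster. Distance mattered for the uncorrected values: in the 6 pairs under 10 kb apart the median corrected frequency was 11009 and 9260 in keratinocytes and 63709 and 78147 in thymocytes, and the median expected frequency moved with it, at 8837, 8459, 56823 and 70413. In the 17 pairs at 50 kb and over it was 806 and 382 in keratinocytes and 289 and 269 in thymocytes, again beside expected values of 572, 323, 272 and 251. The adjacent pair FOR_725 and REV_724 had log2 ratios of 1.78 and 0.55 in keratinocytes and 0.25 and 0.33 in thymocytes. The adjacent pair FOR_796 and REV_797, on either side of the cut between Sprr2f and Sprr2g, had 0.98 and 0.37 against 0.91 and 1.80. Compared with contacts within the Lce1 group (171 pairs), the Sprr2 group differed by 0.40 and -0.02 in keratinocytes and -0.09 and 0.14 in thymocytes, which overlap (exact permutation p = 0.667).

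A contact was called when both libraries of one cell type gave it a deposited q-value below 0.05. Of 3117 cluster contacts listed in both keratinocyte libraries 42 were called, or 1.35%, and of 1979 listed in both thymocyte libraries 60 were called, or 3.03%. Over the whole locus 1.99 percent of contacts were called in keratinocytes and 4.03 percent in thymocytes, so the cluster was below the background in both. Among the 1596 shared contacts, 11 were called only in keratinocytes, 32 only in thymocytes and 8 in both, against 1.45 percent, 3.19 percent and 0.581 percent of all such contacts in the locus, and here the 3 shares of the cluster were 0.689%, 2.01% and 0.501%. By part, 12 keratinocyte and 10 thymocyte calls ended in TAD3 outside the cluster, or 2.33% and 2.36% of the contacts listed there in both libraries. In TAD1 there were 11 and 16 (1.78% and 5.25%), and in TAD2 2 and 3 (0.565% and 1.12%). TAD4 had 7 and 18 (0.943% and 3.29%), and TAD6 9 and 11 (1.71% and 4.12%).

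The fragment just before Sprr2h, FOR_801, carried more calls than any other fragment of the cluster, with 11 of the 42 in keratinocytes, 13 of the 60 in thymocytes and 6 of the 8 common to both. It was looked at in depth after these values were seen. Of its contacts listed in both libraries, 9.65% were called in keratinocytes (11 of 114) and 9.09% in thymocytes (13 of 143). By its number of calls, not their share, it ranked at place 12 in both cell types. The ranking covered the 572 fragments of the locus with at least 50 listed contacts in keratinocytes and the 454 in thymocytes. Its Z scores were widely spread, with SDs of 2.50, 4.07, 4.49 and 3.82 against medians over the cluster fragments of 1.50, 1.96, 2.53 and 3.16, and its median Z score was 0.0996, -0.441, -0.518 and -0.576. The median lay below the expected level in keratinocyte library 2 and both thymocyte libraries, and slightly above it in keratinocyte library 1. Its probe has 7 mismatches to its closest second site in the locus, the same as the median of the 17 probes.

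**Figure D4:**
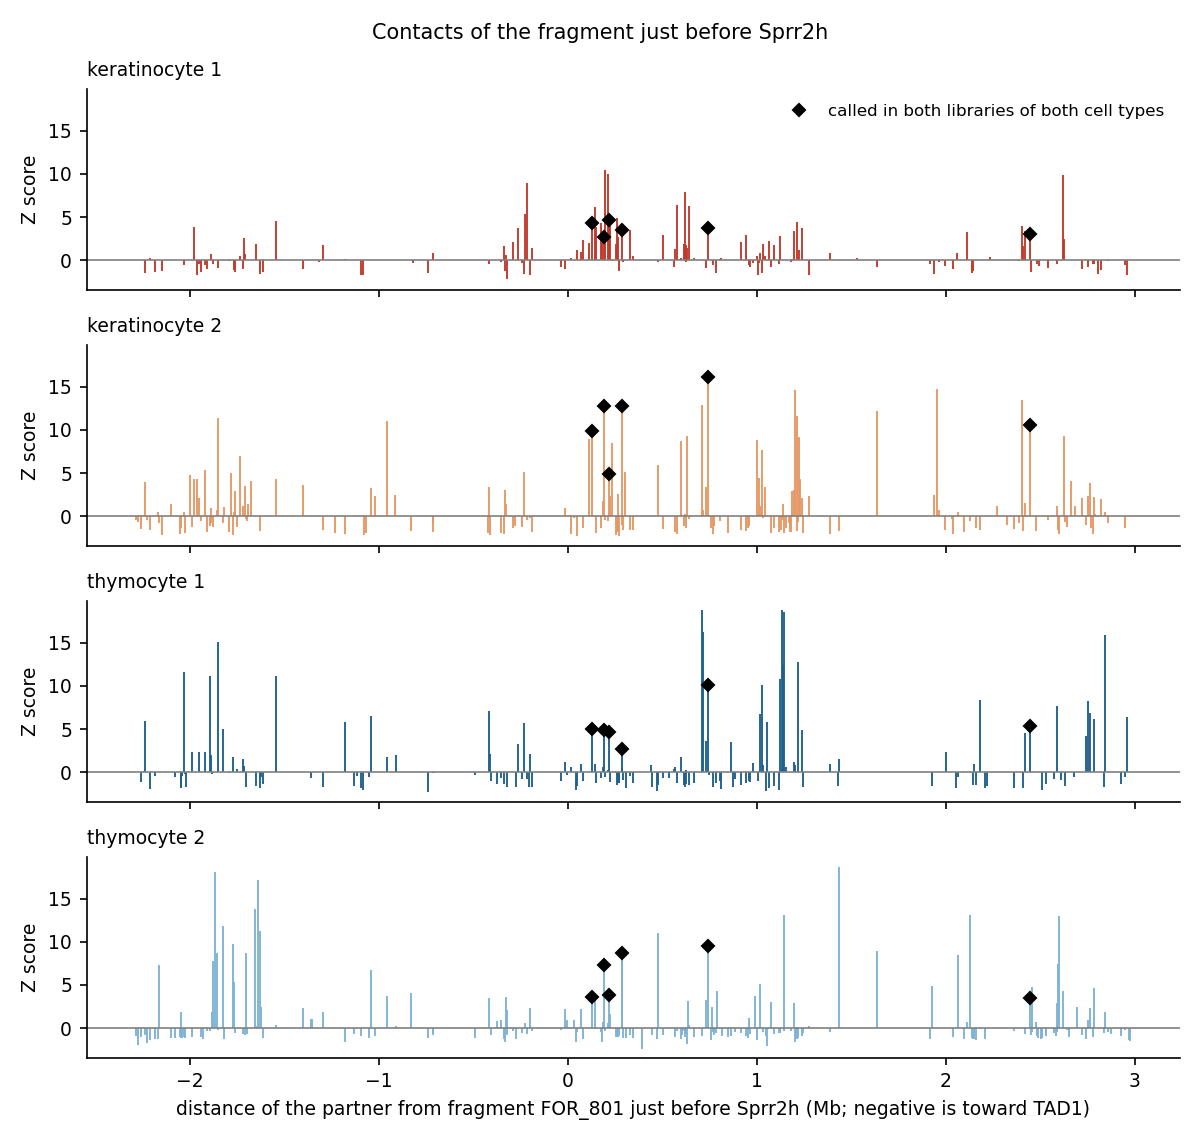
Z score (vertical axis) of each listed contact of FOR_801, the fragment just before Sprr2h, against the distance of its partner in Mb, with 1 panel per library. Diamonds mark the 6 contacts called in both libraries of both cell types; 5 of them lie within 1 Mb on the TAD4 side of the fragment.

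Of the contacts of FOR_801 called in both cell types, the nearer ones ended near Ivl, Smcp and Sprr4 and at Lce1a2. With REV_856 upstream of Ivl, 189 kb away, the Z score was 2.73 and 12.8 in keratinocytes and 4.91 and 7.38 in thymocytes. The corrected frequency of this pair was 1182 and 1740 in keratinocytes against 524 and 277 expected, and 405 and 746 in thymocytes against 174 and 222 expected. With REV_865, 12274 bp upstream of Smcp, a gene of the sperm mitochondrial capsule, the Z score was 4.62 and 4.94 against 4.60 and 3.89. With REV_829, 9433 bp upstream of Sprr4, it was 4.32 and 9.89 against 5.03 and 3.59. With REV_896 at Lce1a2, 285 kb away, it was 3.51 and 12.7 against 2.65 and 8.77. The values of the cell types overlapped in these pairs except that with REV_865, in which both keratinocyte values were slightly above both of thymocytes.

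Farther away, FOR_801 met REV_1019 near enhancer E9, 739 kb away and past the border of TAD3 with TAD4, with Z scores of 3.70 and 16.1 in keratinocytes and 10.1 and 9.52 in thymocytes. With REV_1542 in TAD6, 2448 kb away, they were 3.07 and 10.6 against 5.34 and 3.51. The other common contacts both ended at Crct1. FOR_805, just past Sprr2i, met REV_981 with Z scores of 7.68 and 11.2 in keratinocytes and 9.33 and 5.46 in thymocytes, which in keratinocytes had the highest lower value of the 2 libraries among the shared contacts of the cluster. FOR_796 at Sprr2f met the same fragment with 2.94 and 11.03 against 14.9 and 12.7. All 8 common contacts reached fragments on the far side of the cluster from TAD2.

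Keratinocyte calls not shared with thymocytes included the fragments beside Sprr2a1 and Sprr2e. FOR_725 met REV_854, which overlaps Ivl, with Z scores of 7.64 and 20.8 in keratinocytes, while the pair was listed in neither thymocyte library. REV_791 before Sprr2e met FOR_857, 1558 bp upstream of Ivl, with 2.72 and 5.17, against -1.50 in the only thymocyte library that listed it. FOR_796 at Sprr2f met REV_696 at Prr9 with 3.63 and 2.97 in keratinocytes against -0.594 and 1.37 in thymocytes, and REV_707, 13790 bp upstream of Lelp1, with 2.75 and 12.3 against -1.93 and -0.568. FOR_810 at the start of Sprr2k met REV_1559 at Pogz, 2440 kb away, with 5.22 and 7.48 against -1.68 and -0.740. In these last 3 pairs both keratinocyte values lay above both of thymocytes. One keratinocyte call ran against the order seen toward TAD2: FOR_725 met REV_540 in TAD2 with 12.2 and 4.13 against 1.79 and 1.91. Among thymocyte calls, FOR_805 met REV_71 at Gatad2b with 15.0 and 13.3 in thymocytes against 1.57 and 12.4 in keratinocytes, and REV_797 met FOR_127 at S100a13 with 10.3 and 11.8 against 0.788 and 2.25.

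Enhancers were taken from the study's list of 16, and a contact counted when its partner lay within 10 kb of one. Of the contacts that did so, 5 of 399 were called in keratinocytes (1.25%) and 9 of 219 in thymocytes (4.11%), beside 1.99 percent and 4.03 percent of all contacts in the locus. In keratinocytes 3 of them, of 35 listed there, ended beside E13 near Cgn, which encodes the tight junction protein cingulin: FOR_801 with REV_1532 (Z 4.02 and 13.5), FOR_793 with REV_1534 (3.78 and 6.18) and FOR_725 with REV_1534 (7.53 and 2.60). None of these pairs was listed in a thymocyte library. Over the 9 contacts near E13 listed in all libraries, the mean Z score was 1.23 and 2.47 in keratinocytes and -0.508 and 0.179 in thymocytes, without overlap (exact permutation p = 0.333, adjusted p = 1 over 15 enhancers). The other keratinocyte calls were FOR_801 with REV_1019 near E9, given above, and REV_795 before Sprr2f with FOR_1151 at S100a10 near E11 (3.61 and 4.62). Over the 14 contacts near E11 the mean Z score was 1.28 and 0.462 in keratinocytes and -0.102 and 0.0180 in thymocytes, also without overlap and with the same p-values.

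In thymocytes 5 of the 9 enhancer calls ended in TAD1, of 62 contacts listed near its enhancers. REV_797 before Sprr2g met FOR_127 and REV_809 met FOR_130, both at S100a13 near E2, with Z scores of 10.3 and 11.8 and of 4.98 and 4.99. FOR_725 met REV_140, past S100a16 and near E3, with 6.78 and 8.85, FOR_801 met REV_143, farther past S100a16 and near E4, with 4.98 and 11.9, and REV_807 met FOR_159 at S100a4 and S100a5, near E6 and E7, with 15.7 and 9.15. The keratinocyte values were 0.788 and 2.25 for REV_797 with FOR_127, -1.61 and -0.538 for REV_809 with FOR_130, and 0.0456 and 5.68 for FOR_725 with REV_140. FOR_801 with REV_143 was listed only in keratinocyte library 2 (-0.783), and REV_807 with FOR_159 in neither keratinocyte library. The remaining calls were FOR_801 with REV_1015 and REV_1019 near E9, REV_809 with FOR_1156 near E11 and REV_797 with FOR_1587 near E14. Near E14 the order was turned: over 28 shared contacts the mean Z score was 0.219 and 0.352 in keratinocytes and 1.12 and 1.06 in thymocytes (exact permutation p = 0.333, adjusted p = 1). No cluster contact near E1, E5, E8, E10, E12, E15 or E16 was called in either cell type, but near E12 only 3 and near E16 0 contacts were listed in both thymocyte libraries. E8 is the enhancer closest to the cluster, and its 7 contacts listed in all libraries had mean Z scores of -0.382 and 1.50 in keratinocytes and -0.0272 and 0.491 in thymocytes.

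**Figure D5:**
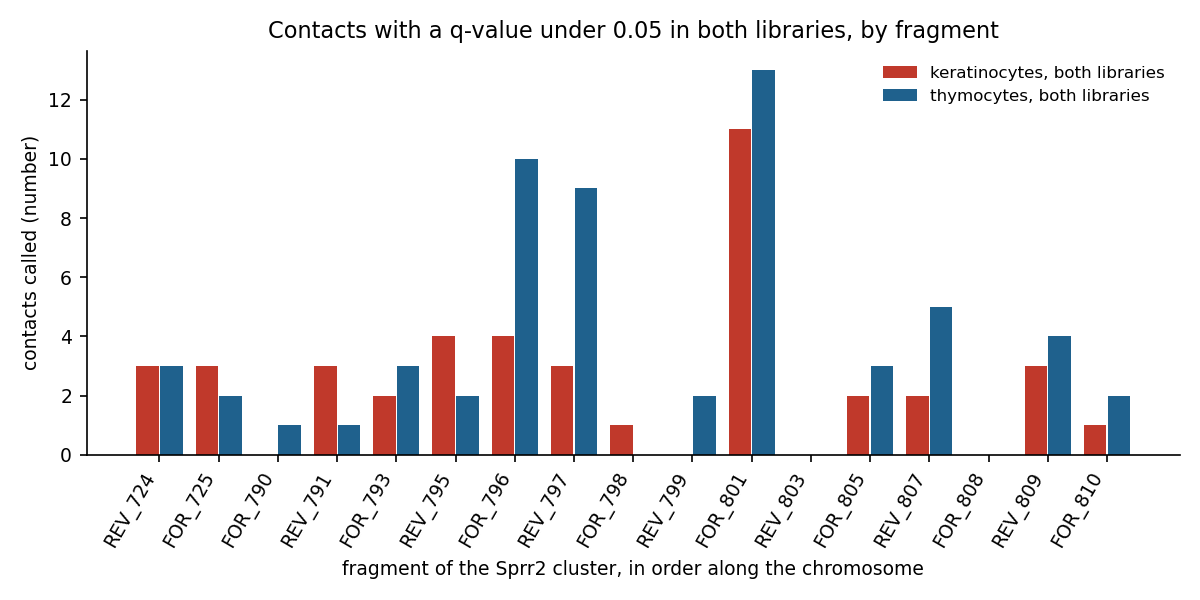
Number of called contacts, those whose q-value passed 0.05 in each library of a cell type (vertical axis, from 0) for each of the 17 Sprr2 fragments in chromosome order, in keratinocytes and thymocytes. FOR_801 before Sprr2h has 11 and 13 calls, and FOR_796 and REV_797 around Sprr2f and Sprr2g have 10 and 9 in thymocytes against 4 and 3 in keratinocytes.

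Calls were spread unevenly over the other fragments. FOR_796 at Sprr2f and the adjacent REV_797 before Sprr2g had 4 and 3 keratinocyte and 10 and 9 thymocyte calls. FOR_790, REV_799, REV_803 and FOR_808 had no keratinocyte call, and FOR_798, REV_803 and FOR_808 no thymocyte call. REV_803, in the interval between Sprr2h and Sprr2i, had 0 calls, with 224 and 155 contacts listed in both libraries of keratinocytes and thymocytes. Among locus fragments with at least 50 listed contacts, the median was 3 calls in each cell type. The highest counts were 17 in keratinocytes and 18 in thymocytes. Fragments from rank 473 of 572 in keratinocytes and from rank 390 of 454 in thymocytes also had 0 calls. A count of 0 was thus not particular to REV_803. REV_795 had 4 calls of 36 and 2 of 8, on few listed contacts.

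No single contact passed the test of a difference between cell types. A limma fit of the Z scores over all 23395 contacts listed in every library called 0 percent of them at an adjusted p-value under 0.05, in the cluster as in the rest, and the smallest adjusted p-value was 0.767. At an unadjusted p-value under 0.05, 29 of the 1596 cluster contacts were higher in keratinocytes (1.82%) and 24 in thymocytes (1.50%), against 2.97 percent and 2.14 percent of all contacts. With log2 ratios in place of Z scores the counts were 42 (2.63%) and 24 (1.50%), beside 814 and 536 of all 23395 contacts, and the adjusted count was again 0. Over the cluster as a whole, 326 contacts had both keratinocyte Z scores above both of thymocytes (20.4%) and 308 had both below (19.3%), beside 21.1 percent and 19.1 percent of all contacts. By the log2 ratio 349 lay above (21.9%) and 308 below (19.3%), beside 22.1 percent and 18.7 percent of all contacts.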

How the data were processed

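Each library was deposited as a table of 5C contacts made by the authors. Per the paper, reads were aligned with Bowtie to a pseudo-genome made of the 5C probes, and the labels name mm9 as the genome build. The corrected frequency and the expected frequency of each contact (signal values), the gap between its fragments in kb and the Z score were computed by the authors, as were the Weibull p-values and q-values. The Z score equalled observed minus expected, divided by the deposited SD. Read depth is unknown from these values, so precision rests on the 2 libraries per cell type. The members and lists were chosen with earlier results of these data known. TAD borders, enhancers and genes were taken from the study's tables, and genes were placed with GENCODE M1 (160 of 164 matched). Contacts named are those called near enhancers, within the cluster or in both cell types, and the 3 with the highest smaller Z score in each cell type; other keratinocyte calls, and the fragments and parts described singly, were chosen after their values were seen. Library means over contacts listed in all 4 libraries were compared by exact permutation, and single contacts with limma 3.58.1 in R 4.3.3 (lmFit, eBayes with trend, Benjamini-Hochberg adjustment). For simulated data the spreads between libraries were shuffled over contacts. There the limma fit recovered 0%, 10%, 60% and 44% of Z score shifts of 4, 8, 16 and 32, with 4 false calls. It thus missed many large shifts, and these shares need not hold for the measured data. Alternatives are given in the closing section.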

Additional observations from a re-analysis of the deposited data

How the results depend on the processing

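Each difference here is keratinocyte minus thymocyte. Toward TAD2 and Ivl, and for the leaning toward TAD3 on both sides of the thymocyte border, no alternative turned the direction. Most turns were in small differences. Medians in place of means gave, within the cluster, 0.0317 for the log2 corrected frequency, 0.105 for the Z score and 0.0664 for the log2 ratio. They gave Z scores of 0.111 (TAD1), -0.0235 (Prr9 and Lelp1), 0.212 (TAD6) and 0.00743 (TAD7), and log2 ratios of 0.0667 (TAD1), 0.0037 (Prr9 and Lelp1), 0.0539 (Sprr1 and Sprr3), 0.13 (TAD4) and 0.16 (TAD6). All contacts each library listed gave -0.243 (TAD4, Z score) and 0.11 (Sprr1 and Sprr3, log2 ratio). Within the cluster, contacts at least 20 kb apart gave 0.54 (log2 corrected frequency) and 0.0127 (Z score), fragments placed by any overlap 0.00518 (Z score), and a common total 0.93 (log2 corrected frequency). Thymocyte TAD borders gave 0.0077 (TAD4, log2 ratio), and 200 kb around the border 0.0130. Chosen after seeing the data, leaving out FOR_801 gave 0.0291 (Z score) and 0.0075 (log2 ratio) toward TAD7 and 2 common calls, and comparison with contacts outside the cluster at the same distance gave Z scores of 0.327 (TAD6) and 0.0835 (TAD7) and log2 ratios of 0.0439 (TAD4), 0.0801 (TAD6) and 0.0876 (TAD7). The cause was not tested.

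Leaving out 1 library at a time, the ranges that crossed 0 were, for Z scores, -0.417 to 0.0535 (within the cluster), -0.0694 to 0.344 (Lce1), -0.0289 to 0.166 (TAD4), -0.250 to 0.158 (TAD6) and -0.177 to 0.00458 (TAD7). For log2 values they were -0.57 to 0.29 (corrected frequency within the cluster), -0.41 to 0.0488 (Prr9 and Lelp1), -0.0709 to 0.12 (Lce1), -0.0341 to 0.0336 (TAD4), -0.16 to 0.0657 (TAD6), -0.23 to 0.15 (TAD7) and -0.0411 to 0.38 (Sprr2 minus Lce1). A call then needs 1 library, and 326 to 360 keratinocyte and 252 to 447 thymocyte contacts were called. At a q-value of 0.01, 7 contacts were called only in keratinocytes and 4 in both, and at 0.1, 23 only in keratinocytes. The shares over the whole locus at these settings are not given, so none of these counts is read as a trait of the cluster. With the corrected frequency scaled to a common total and no allowance for distance, 1252 contacts were higher (78.4%) and 12 lower (0.752%) in keratinocytes without overlap. Over the whole locus 70.5% of contacts were higher and 2.44% lower by this measure, so most of this count is not particular to the cluster.

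Libraries of the same number did not deviate together (r = -0.151 over the cluster). With the replicate number as a block limma again called 0 cluster contacts. At an unadjusted p-value under 0.05, 25 of 1596 were higher and 35 lower, beside 730 and 508 of all 23395 contacts. Crossed numbers, chosen after seeing the data, also gave 0 cluster calls, with 34 and 46 beside 888 and 714. With 2 libraries per cell type, 0 calls do not exclude large differences in single contacts.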
